A study of Mus musculus with 49 samples.

Results

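Cells collected as neurons of the same birthdate were compared by the layer markers they held. L6-type cells held genes of layer 6 and not of layer 5, and L5-type cells held genes of layer 5 and not of layer 6. A cell was taken to hold a list when at least 2 of its 5 genes reached 10 RPM (reads corrected for the depth of each cell). The layer 6 list was Tbr1, Tle4, Foxp2, Syt6 and Hs3st4, and the layer 5 list was Bcl11b, Fezf2, Crym, Ldb2 and Bcl6. Of 49 cells, 10 were L6-type and 11 were L5-type, 13 held both lists and 15 held neither. All cells were collected as neurons of wild-type CD1 mice. They were given a pulse of the dye FlashTag at E13.5 and aspirated one by one with a patch pipette from the primary somatosensory cortex at P7. FlashTag marks cells that divide at the ventricular surface when it is injected, so labelled neurons share a birthdate. There was no treated or control group, and the labels give a library pool for every cell but no animal, so the 49 cells were handled as 1 sample. Values are therefore described, with the SD over cells, and no test was made.

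Deep-layer excitatory neurons fall into classes that send their axons to different targets. Corticothalamic neurons of layer 6 project to the thalamus and use Tbr1, a T-box factor that restrains the subcerebral programme. Subcerebral neurons of layer 5 project to the brainstem and spinal cord and depend on Fezf2 and its downstream factor Bcl11b (CTIP2). Fezf2 and Tbr1 are known to repress one another's programmes, while Bcl11b is also used by many cortical interneurons and is present at a lower level in layer 6.

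The 10 marker genes were not used evenly. Hs3st4, a heparan sulfate sulfotransferase, reached 10 RPM in 9 of the 10 L6-type cells and Foxp2, a forkhead factor of corticothalamic neurons, in 8. Tbr1 did so in 5 cells, the corepressor Tle4 in 3 and the synaptotagmin Syt6 in 2. Foxp2 in the L6-type cells ranged from 2.48 to 1156 RPM with a median of 88.0, and Hs3st4 from 3.46 to 456 RPM with a median of 23.5. On the other side, Bcl11b reached 10 RPM in 8 of the 11 L5-type cells, the cofactor Ldb2 in 6, and Fezf2 and the thyroid hormone-binding protein Crym in 4 each. Bcl6 chose no cell, since its highest value in any member was 2.18 RPM. Bcl11b had a median of 70.8 RPM and a maximum of 643 RPM in the L5-type cells. These values chose the cells and are given as a description only. In GRCm38, Foxp2 lies at chr6:14901349-15441977 (+), Hs3st4 at chr7:123982869-124398989 (+) and Bcl11b at chr12:107910403-108003602 (-).

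Most cells entered their group with the smallest number of genes the rule allows. Every L5-type cell held exactly 2 layer 5 genes, while the L6-type cells held 2 to 4 layer 6 genes. With 3 genes needed, 4 L6-type cells and 0 L5-type cells were left. The gene that decided a cell's place, its second highest on its own list, had a median of 26.7 RPM in the L6-type cells and 47.9 RPM in the L5-type cells, and lay under 20 RPM in 3 and 2 cells. The members just inside the limit were IL04_Pool5 and IL10_Pool5, placed by Hs3st4 at 11.4 RPM (8 reads) and 11.6 RPM (11 reads). Just outside, Fezf2 at 8.93 RPM kept the layer 5 list from being held in the L6-type cell IL08_Pool2. IL01_Pool3 held 0 layer 5 genes, and its second highest was Bcl11b at 7.93 RPM (4 reads). In that cell, 68.8% of the reads fell on haemoglobin genes. Of the 59 marker values at 10 RPM or more in the members, 8 were under 1% of all reads of that gene in the cell's library pool. When such values were not counted, the groups held 7 and 12 cells.

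**Figure D1:**
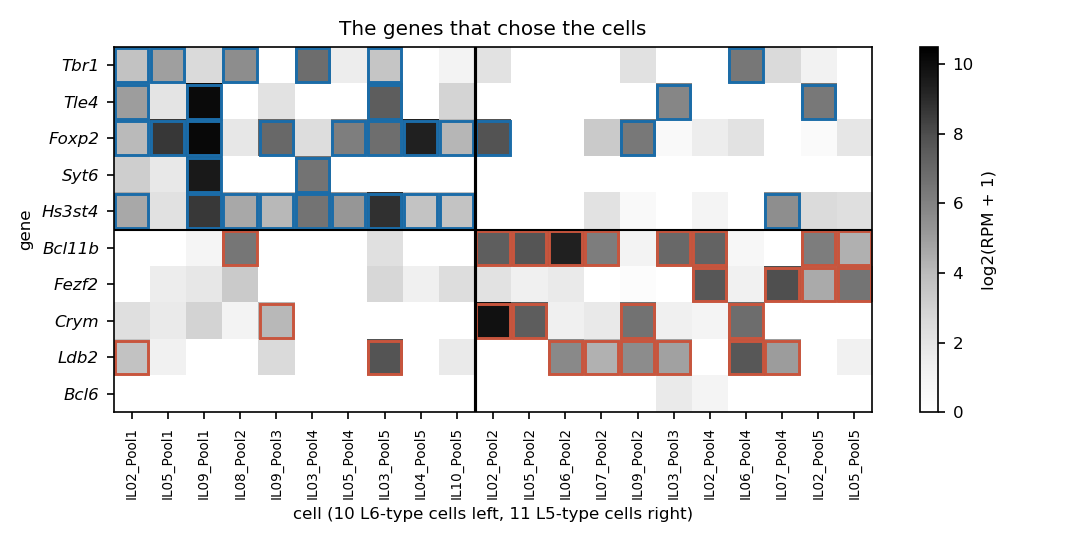
Level of the 10 genes that chose the cells, in log2(RPM + 1) as grey level, with genes as rows and the 21 cells as columns; outlined squares reach 10 RPM, in blue for the layer 6 list (above the line) and in red for the layer 5 list. Each L5-type cell has 2 red outlines, and Hs3st4 is outlined in 9 of the 10 L6-type cells.

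Markers of other cell types were present in both groups. General neuronal genes (Map2, Stmn2, Snap25, Syt1) were abundant, with at least 2 of them at 100 RPM in all 21 cells. The same held in all 13 cells with both lists and all 15 with neither, so it does not tell the cells apart. At least 2 of the excitatory genes Slc17a7, Neurod2 and Neurod6 reached 10 RPM in 8 of 10 L6-type cells (exact 95% interval 44.4% to 97.5%, which covers counting error only) and in 6 of 11 L5-type cells (23.4% to 83.3%). At least 2 of the inhibitory genes Gad1, Gad2 and Slc32a1 did so in 2 L6-type and 4 L5-type cells. At least 2 of 3 defining genes of astrocytes, the oligodendrocyte lineage or microglia did so in 3 L6-type and 4 L5-type cells. The names L6-type and L5-type therefore stand for the marker rule and not for a settled cell class. Among single cells, the L6-type cell IL10_Pool5 carried Vip, a peptide of a class of interneurons, at 8113 RPM, and the L5-type cell IL02_Pool2 carried Olig1, a factor of the oligodendrocyte lineage, at 1990 RPM. In the L6-type cell IL03_Pool4, 21.6% of the reads fell on haemoglobin genes.

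The groups also differed in depth and in library pool. Total reads ranged from 258130 to 3757627 in the L6-type cells (median 959722) and from 632018 to 6867017 in the L5-type cells (median 1409643). In the shallowest member, the L6-type cell IL02_Pool1, 1 read stood for 3.87 RPM, so 10 RPM was 3 reads. Pool 1 held 3 L6-type cells and no L5-type cell. Pool 2 held 1 L6-type and 5 L5-type cells, pool 3 held 1 of each, pool 4 held 2 and 3, and pool 5 held 3 and 2. The L6-type cells had 2481 to 4478 genes at 10 RPM or more (median 3569.5) and the L5-type cells 2242 to 6786 (median 4385). After the reads of every cell were thinned to 258130, the medians were 3646 and 4398 genes. The 6 L5-type cells with 2 excitatory genes all had at least 4385 genes at 10 RPM, and the other 5 L5-type cells had at most 4138.

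**Figure D2:**
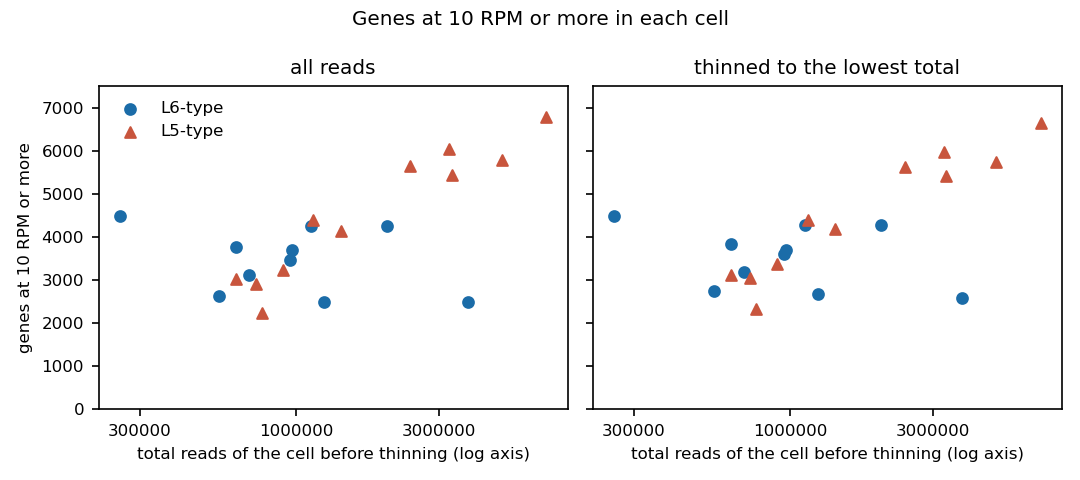
Genes at 10 RPM or more (vertical axis) against the total reads of each cell (log axis), for 10 L6-type cells (blue circles) and 11 L5-type cells (red triangles), with all reads (left) and with every cell thinned to 258130 reads (right). In both panels, 5 L5-type cells lie above the highest L6-type cell, and the other cells overlap.

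Outside the 10 marker genes, 9010 genes were compared as the difference of the group means of log2(RPM + 1), L6-type minus L5-type, so that a negative value means a higher mean in the L5-type cells. The median difference was -0.53, and 6170 genes (68.5%) had the higher mean in the L5-type cells against 2835 in the L6-type cells. The median was -0.54 after thinning and -0.54 as a mean of differences within the 4 pools that held both groups. A gene was counted as past the limit when its difference was at least 2, or 4-fold on this scale, with 10 RPM reached in at least 50% of the cells of the higher group. By this count 71 genes (0.788%) were higher in L6-type and 720 genes (7.99%) higher in L5-type cells. Relative to the median of all genes, the counts were 184 (2.04%) and 332 (3.68%), so the surplus on the L5-type side was smaller after centring. With 8 L6-type and 6 L5-type cells, those with 2 excitatory genes, the counts were 88 and 2452 and the median difference -1.12.

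Few of these differences were large against the spread between cells. The median SD within groups over all genes was 2.61 on the log2 scale. Of the 791 genes past the limit, 358 had a difference above 1 SD and 5 above 2 SD, and in 790 the ranges of the 2 groups overlapped. The difference had the same sign in all 4 shared pools for 25 of the 71 genes and for 255 of the 720. It dropped under 2 without a single cell for 39 and 291 genes. Both within pools and after thinning, 70 of the 71 and 719 of the 720 genes kept their sign. Fewer stayed past the limit, 41 and 501 within pools and 59 and 627 after thinning.

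**Figure D3:**
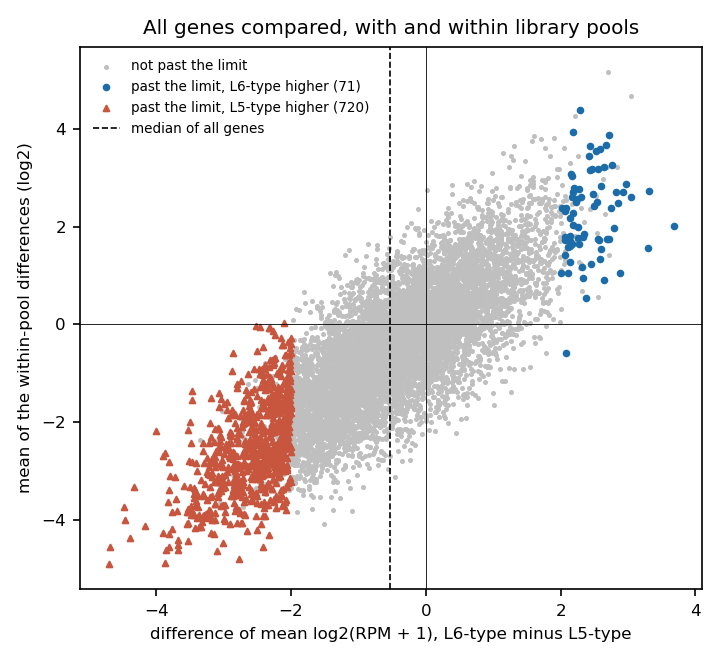
Difference of mean log2(RPM + 1) between 10 L6-type and 11 L5-type cells (horizontal axis) and mean of the differences within the 4 shared library pools (vertical axis), 1 point for each of 9010 genes. Genes past the limit are blue circles (71, L6-type higher) or red triangles (720, L5-type higher), and the dashed line is the median of all genes at -0.53.

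The gene furthest to the L6-type side was Col1a2, a chain of type I collagen at chr6:4504814-4541544 (+) in GRCm38. Its values in the L6-type cells were 0.50, 1.79, 7.90, 8.58, 10.8, 23.2, 29.4, 29.8, 102 and 1678 RPM. In the L5-type cells it never exceeded 3.89 RPM. It thus reached 10 RPM in 6 of 10 L6-type cells and in 0 of 11 L5-type cells. The exact interval for 0 of 11 reaches 28.5%, with the cells treated as independent, although the labels name no animal. Of the L6-type cells, 2 lay within the range of the L5-type cells. The mean log2 level was 4.39 ± 2.84 (SD, n = 10 cells) against 0.71 ± 0.87 (SD, n = 11 cells), a difference of 3.68. Within pools it was 2.01, a value without pool 1, whose 3 L6-type cells were all above 20 RPM.

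Other genes on the L6-type side were carried by part of the cells. Sfr1, a partner in homologous recombination, was at 159 to 818 RPM in all 10 L6-type cells. In the L5-type cells it was at 205 to 464 RPM in 6 cells and under 10 RPM in 5, which gave a difference of 3.31. Vip (3.30) reached 10 RPM in 5 L6-type and 2 L5-type cells, and its difference was 1.56 within pools. In pool 5 it was at 8113 RPM in IL10_Pool5, 66.7 RPM in IL03_Pool5 and 48.6 RPM in IL04_Pool5. Both L5-type cells, at 11.7 RPM each, were also in pool 5. The other L6-type cells that reached 10 RPM were in pool 1, at 38.7 and 70.8 RPM. The share of a pool's reads was checked for the marker genes and was not tested for Vip. Ttr, the carrier of thyroxine and retinol-binding protein that the choroid plexus makes in great amounts, ranged from 1.79 to 19561 RPM in the L6-type cells and from 0 to 1328 RPM in the L5-type cells, with a difference of 3.04. Its 2 highest values lay in the L6-type cells IL09_Pool1 and IL04_Pool5.

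Other genes past the limit on this side included several nuclear proteins. The cohesin subunit Rad21 (difference 2.82), the nucleolar remodelling subunit Baz2a (2.79), the zinc finger repressor Zbtb7a (2.72) and the nucleolar factor Tcof1 (2.71) each overlapped widely between groups. Zbtb7a was at 3.99 to 339 RPM in the L6-type cells and at 0 to 114 RPM in the L5-type cells. Cntnap1, a contactin-associated protein of the axon beside the node of Ranvier, reached 10 RPM in 5 L6-type cells and 1 L5-type cell (2.97), but it overlaps Plekhh3 on the other strand. The misc_RNA gene Gm24514 reached 10 RPM in 7 L6-type cells and in 0 L5-type cells, where its highest value was 7.01 RPM, with a difference of 2.77 and of 3.27 within pools.

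Without centring on the median of all genes, the differences toward the L5-type cells were larger. Mrpl4, a protein of the large mitochondrial ribosome subunit at chr9:21002738-21008839 (+), had the largest one at -4.70. Relative to all genes, Col1a2 was at 4.20 and Mrpl4 at -4.18. In the L5-type cells it was at 4.09, 6.33, 12.9, 64.2, 78.5, 81.4, 103, 135, 147, 192 and 321 RPM. In the L6-type cells its highest value was 5.41 RPM, and 3 cells had no read. The ranges overlapped only through the L5-type cell IL05_Pool2, and the within-pool difference was -4.92. Mrpl4 was at 10 RPM or more in 10 of the 13 cells with both lists and in 8 of the 15 cells with neither, against 0 of the L6-type cells.

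Pcyt1b, which makes the CDP-choline used for phosphatidylcholine, was absent from nearly all L6-type cells. Of these, 8 had no read and the other 2 had 0.99 and 2.07 RPM. It reached 10 RPM in 8 of 11 L5-type cells, with a highest value of 256 RPM, and its difference was -4.69. In contrast to Mrpl4, it was also rare elsewhere, at 10 RPM in 3 of the 13 cells with both lists and in 4 of the 15 with neither. Cnpy2, a protein of the endoplasmic reticulum, was at 54.3 to 1174 RPM in all 11 L5-type cells, and 3 of the 10 L6-type cells exceeded 10 RPM, 1 of them at 923 RPM. Gucy1a3, a subunit of the nitric oxide receptor guanylate cyclase, reached 10 RPM in 9 L5-type cells and in no L6-type cell (highest 7.75 RPM), with a difference of -4.47.

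Only Adrm1, the ubiquitin receptor of the proteasome at chr2:180171485-180176286 (+), had groups that did not overlap (1 of 9010 genes, 0.0111%, and 0 genes in the other direction). In the L6-type cells it was at 0, 0.81, 1.80, 3.87, 9.85, 11.6, 14.3, 15.8, 17.2 and 25.8 RPM. In the L5-type cells it was at 33.2, 33.97, 34.1, 34.7, 39.4, 42.04, 47.5, 53.1, 55.9, 71.6 and 96.0 RPM. The mean difference was -2.70 for an SD of 1.16 within groups, and it was -2.03 within pools. Its gap, between 25.8 and 33.2 RPM, is narrow, and it was named for its values after they were seen.

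The other leading genes on the L5-type side have varied roles. Itch (-4.33) and Uchl5 (-3.87) attach and remove ubiquitin, Stt3b (-4.38) is a catalytic subunit of the oligosaccharyltransferase, and Gaa (-4.00) is the lysosomal enzyme that breaks down glycogen. Stt3b reached 10 RPM in 8 L5-type cells and in no L6-type cell. Arhgap5 (-4.17) is a GTPase-activating protein, and Trp53bp1 (-3.90), a DNA damage response protein that overlaps Tubgcp4 on the other strand, reached 10 RPM in 10 L5-type cells and 1 L6-type cell. Tcf12 (-3.87), an E protein that pairs with neuronal basic helix-loop-helix factors, reached 10 RPM in 7 L5-type cells and in no L6-type cell, and its highest value, 1144 RPM, was in IL02_Pool2. Med16 (-3.90), a subunit of Mediator, did so in 8 and in none.

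**Figure D4:**
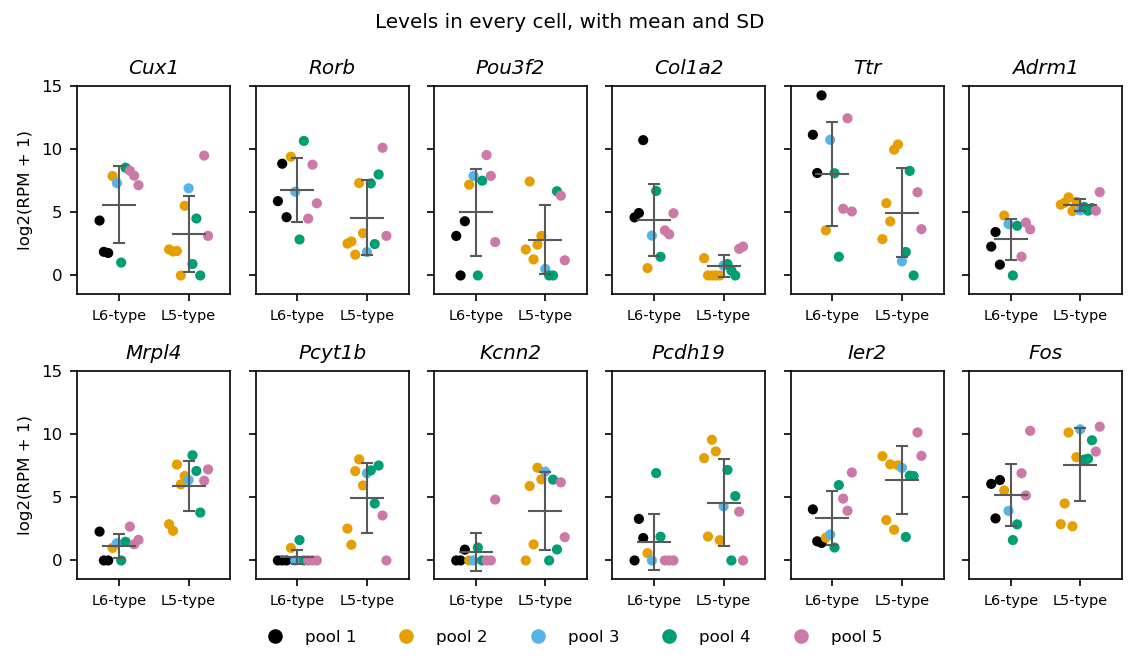
Level in log2(RPM + 1) of 12 genes in each of 10 L6-type and 11 L5-type cells, 1 point for each cell coloured by library pool, with the mean (long bar) and SD (whiskers). Adrm1 has no overlap, Mrpl4 and Pcyt1b overlap in few cells, and Cux1, Rorb, Pou3f2, Ier2 and Fos overlap over most of their range.

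Further genes of the same layers did not separate the groups. Of 6 other layer 6 corticothalamic genes in the table, 0 were past the limit toward the L6-type cells and 1 toward the L5-type cells, and their median difference was 0.43 (0.95 relative to all genes). Rprm, a regulator of the cell cycle enriched in layer 6, was at 10 RPM in 8 L6-type and 6 L5-type cells. Its 2 highest values, 1847 and 1656 RPM, lay in the L5-type cells IL09_Pool2 and IL06_Pool4, and its difference was 1.54, under the SD of either group. Igsf21 was at 998 RPM in an L6-type cell and at 686 and 660 RPM in the same 2 L5-type cells. Sla, the member past the limit, was the other way round, at a median of 2.12 RPM in the L6-type and 37.3 RPM in the L5-type cells (-2.42), and it overlaps Tg on the other strand.

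The other layer 5 subcerebral genes were as mixed. Of 11, none was past the limit in either direction, and the median difference was -0.22. Ntng1, a netrin of the axon membrane, reached 10 RPM in 5 L5-type cells and in no L6-type cell (-2.16 relative to all genes), whereas Neto1, an auxiliary subunit of kainate receptors, did so in 3 L6-type cells and 1 L5-type cell (2.52 relative to all genes). Pcp4, a calmodulin regulator used as a layer 5 marker, was at 10 RPM in 9 cells of each group (0.62). Without cells with 2 inhibitory genes the list's median was 0.75, and without those with 2 glial genes it was -1.42, so its sign rested on which cells were kept.

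Most genes of superficial and intracortically projecting neurons had their higher mean in the L6-type cells. Of 16, 14 had a positive difference, as did 2835 of all 9010 genes. Past the limit were 3 toward the L6-type side, beside 0.788% of all genes, and 0 toward the other, and the median was 0.80 (1.32 relative to all genes). Each of these 3 could drop under 2 when a single cell was left out, to 1.97 for Cux1, 1.77 for Rorb and 1.68 for Pou3f2. After thinning, Pou3f2 was at 1.93. Cux1, a homeodomain factor of upper layers at chr5:136248135-136567490 (-), was at 1.03, 2.43, 2.66, 19.4, 141, 158, 234, 237, 312 and 370 RPM in the L6-type cells. Thus 6 of the 10 were above 100 RPM, against 2 of the 11 L5-type cells, 1 of which had the highest value of all at 719 RPM. The difference was 2.30 in all cells, 2.61 within pools and 0.57 in cells with 2 excitatory genes, where the median of all genes was -1.12.

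Rorb, the orphan receptor that marks layer 4, reached 10 RPM in 9 of 10 L6-type cells and 4 of 11 L5-type cells. Its median was 78.1 RPM against 7.79 RPM and its difference 2.20, and in cells with 2 excitatory genes it was 1.16. Pou3f2 (Brn2), a POU factor of upper-layer neurons, reached 10 RPM in 6 and 3 cells (2.18, and 2.17 in cells with 2 excitatory genes). Dkk3, a secreted Dickkopf family protein, had a difference of 2.52 from 3 L6-type cells and 1 L5-type cell. Cux2, a homeodomain factor like Cux1, was at 10 RPM in 5 and 4 cells (0.72), so the genes of this list did not move as a block. The list's median ranged from 0.57 to 1.07 when each cell was left out in turn. In cells with 2 excitatory genes it was 0.67, where the median of all genes was -1.12 in place of -0.53.

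Subplate and layer 6b genes had a median of 0.44 over 4 genes, and none was past the limit. Nr4a2, an orphan nuclear receptor of subplate cells, had its difference of 2.07 from 3 L6-type cells at 238, 368 and 381 RPM, while 2 L5-type cells were at 45.4 and 130 RPM. Of 18 transcription factors of deep-layer and postmitotic neurons, 9 were higher on each side. Sox5, which controls the timing of corticofugal neuron production, was past the limit toward the L5-type cells, at 10 RPM in 7 cells against 4 (-2.08). Its difference was -0.62 within pools and -1.35 in cells with 2 excitatory genes, where the median of all genes was -1.12. Tshz2 (1.77) and Id2 (-1.72) had the next largest differences.

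None of 11 genes of excitatory neurons in general was past the limit, and their median was 0.15. Slc17a7, the vesicular glutamate transporter, reached 10 RPM in 7 cells of each group, with medians of 65.6 and 22.4 RPM and a difference of 1.31. Of 17 genes of growth and the cytoskeleton, none was past the limit, and the median was -0.15. Basp1, an abundant growth cone protein, was at 221 to 6023 RPM in the L6-type cells and at 160 to 1599 RPM in the L5-type cells (1.29). The neurofilament Nefl, which overlaps Nefm on the other strand, had a difference of -1.49. The groups overlapped in Basp1 and in Nefl.

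Ion channel and adhesion genes leaned to the L5-type cells, as all genes did. Of 40 genes of voltage-gated and related ion channels, 0 were past the limit toward the L6-type cells and 4 toward the L5-type cells. That share was near the 7.99% of all genes, and the median of -0.65 was -0.12 relative to all genes. Kcnn2, a calcium-activated potassium channel of the afterhyperpolarization, reached 10 RPM in 6 L5-type cells, at 58.6, 71.9, 83.5, 84.9, 130 and 162 RPM. Among the L6-type cells, only IL10_Pool5 reached it, at 27.3 RPM, and 7 had no read. Its difference was -3.26, and -3.89 within pools. The sodium channel Scn8a (-2.40) and the calcium channel subunit Cacnb4 (-2.27) were also past the limit, and they were at 10 RPM in 5 and 4 L6-type cells too.

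Of 29 glutamate and GABA receptor genes, the AMPA receptor subunit Gria1 (-2.43) and the GABA-A subunit Gabrg3 (-2.25) were past the limit toward the L5-type cells, a share below the 7.99% of all genes. The highest values of both, 1604 and 1861 RPM, were in IL07_Pool2, 1 of the L5-type cells with inhibitory genes, and without the cells that held 2 such genes Gria1 had a difference of -0.50. The list's median was -0.52, against -0.53 for all genes. Of 34 cadherin and adhesion genes, 5 were past the limit toward the L5-type and 0 toward the L6-type cells, beside 7.99% and 0.788% of all genes (median -0.83, or -0.31 relative to all genes). Pcdh19, a delta-protocadherin, reached 10 RPM in 7 L5-type cells and 1 L6-type cell (-3.12). The corresponding counts were 7 and 1 for the cadherin Cdh10 (-2.83) and the synaptic protein Lrrtm3 (-2.76), which overlaps Ctnna3 on the other strand. Pcdh7 (-2.78) and Ncam2 (-2.18) were the others. In the list, 10 RPM was reached by 0 L6-type and 5 L5-type cells for Cdh8 (-2.55), and by 4 and 2 cells for the axonal protein Cntn2 (2.56), neither past the limit.

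Of 31 axon guidance genes, 1 was past the limit toward the L5-type cells. It was Unc5c, a netrin receptor for repulsion, at 10 RPM in 7 L5-type and 2 L6-type cells (-2.40, and -2.95 within pools). The secreted semaphorin Sema3c had a difference of 2.45 that 3 L6-type cells made, the highest at 869 RPM, while 1 L5-type cell was at 381 RPM. Slit2, a ligand of Robo receptors, was at 10 RPM in 5 L5-type cells and 1 L6-type cell (-2.22).

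Immediate early genes, which neurons and other cells switch on within minutes of activity or stress, had the higher mean in the L5-type cells for 7 of 9 genes, where 68.5% of all genes did. The median was -0.96 (-0.43 relative to all genes), with 3 past the limit toward the L5-type cells, beside 7.99% of all genes, and 0 toward the other side. Ier2 was at 1.03, 1.62, 1.86, 2.48, 3.16, 14.3, 15.5, 28.8, 61.6 and 124 RPM in the L6-type cells. In the L5-type cells it was at 2.63, 4.42, 8.17, 102, 104, 160, 184, 194, 305, 310 and 1127 RPM. Above 100 RPM were 8 L5-type cells and 1 L6-type cell, and the difference was -3.01, and -3.70 within pools. Fos had a median of 288 RPM in the L5-type cells, where 9 were at 10 RPM or more against 7 L6-type cells (-2.39), with 1 L6-type cell, IL10_Pool5, at 1228 RPM. Nr4a3 reached 10 RPM in 6 L5-type cells and 1 L6-type cell, again IL10_Pool5 (-2.25), whereas Jun was higher in the L6-type cells (1.65). Leaving out single cells moved the list's median between -1.39 and -0.56.

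Transcription of such genes is known to respond to CREB, which binds the cyclic AMP response element TGACGTCA. A RefSeq start in GRCm38.p6 was at hand for 7 of the 9 genes, all but Ier2 and Egr1. The 250 bases before each start were searched on both strands. The whole element was found only before Dusp1, 143 bases before its start (3.51% of all genes with a window had it). The shorter TGACG was found before 6 of the 7, all but Jun, and before 32.7% of all genes. The windows of Fos and Nr4a3, both past the limit, are shown for these matches, 5′ to 3′ on the gene's strand, with TGACG or its reverse complement CGTCA in capitals. Fos has 2 matches, at chr12:85473640-85473889 (+), and Nr4a3 has 4, at chr4:48045055-48045304 (+). In the GENCODE M21 annotation Nr4a3 begins at 48045153, so part of its window lies inside the annotated gene. That part holds the match 147 bases before the RefSeq start. A match describes the letters and not a site in use.
Fos: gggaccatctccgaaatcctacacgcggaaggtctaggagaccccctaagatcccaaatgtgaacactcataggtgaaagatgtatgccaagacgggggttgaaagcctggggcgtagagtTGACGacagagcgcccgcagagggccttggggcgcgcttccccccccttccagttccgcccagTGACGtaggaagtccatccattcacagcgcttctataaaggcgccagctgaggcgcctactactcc
Nr4a3: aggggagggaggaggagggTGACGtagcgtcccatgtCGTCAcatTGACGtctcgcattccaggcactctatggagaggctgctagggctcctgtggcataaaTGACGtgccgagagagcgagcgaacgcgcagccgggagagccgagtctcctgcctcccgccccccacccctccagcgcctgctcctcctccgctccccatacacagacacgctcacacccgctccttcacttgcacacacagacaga

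Inhibitory neuron genes had no member past the limit of 17, and their median was -0.21. Nxph1, a ligand of neurexins made by interneurons, was at 186, 305, 397, 429 and 908 RPM in 5 L5-type cells and at 52.7 RPM in 1 L6-type cell. Its difference of -3.34 was -0.67 without the cells with 2 inhibitory genes. Gad2, a GABA-synthesizing enzyme, exceeded 300 RPM in 3 L5-type cells and in the L6-type cell IL10_Pool5 (-2.13). Summed over the list, inhibitory genes ranged from 39.7 to 7167 RPM in the L6-type cells and from 16.9 to 7549 RPM in the L5-type cells.

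Astrocyte genes had 2 of 8 past the limit toward the L6-type cells, Aldoc (2.11) and the lipid carrier Apoe (2.27), beside 0.788% of all genes, with a median of 0.35. Leaving out a single cell could bring both under 2, to 1.65 for Aldoc and 1.62 for Apoe. Within pools the differences were 1.06 and 2.78. The sign was the opposite in pools 2 (-2.54) and 5 (-1.33) for Aldoc and in pool 5 (-0.70) for Apoe. Apoe was at 15.4 to 8054 RPM in all 10 L6-type cells and at 0 to 2010 RPM in the L5-type cells. Of the defining genes, the water channel Aqp4 exceeded 10 RPM in 2 L6-type cells and Aldh1l1 in 3 L5-type cells. The summed list ranged from 379 to 8197 RPM in the L6-type cells, with a median of 1744, and from 228 to 6867 RPM in the L5-type cells, with a median of 282. Microglia genes had none of 9 past the limit (median -0.32), with sums up to 4691 and 10594 RPM in single cells of the 2 groups, and oligodendrocyte lineage genes none of 6 (median -0.03). Of 2 endothelial and mural genes, Flt1 and Rgs5, neither was past the limit (median 1.11), and both reached 10 RPM in IL03_Pool4 alone. Their part in the differences above was not tested.

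Haemoglobin genes had their higher mean in the L6-type cells. All 4 had a positive difference (median 1.58), and Hbb-bs (2.33) and Hba-a1 (2.14) were past the limit. Without IL03_Pool4 the median was 0.85, and Hbb-bs (1.57) and Hba-a1 (1.37) were no longer past it. In pool 5 the sign was the opposite, at -2.02 for Hbb-bs and -2.63 for Hba-a1. Hbb-bs ranged from 89.8 to 162456 RPM in the L6-type cells and reached at most 9507 RPM in the L5-type cells, and all 21 cells had at least 10 RPM of it. Near-identical copies such as Hbb-bs and Hbb-bt can share reads, so the split between them is uncertain. Rescaling to reads outside haemoglobin and mitochondrial genes left the counts at 75 and 706 genes.

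**Figure D5:**
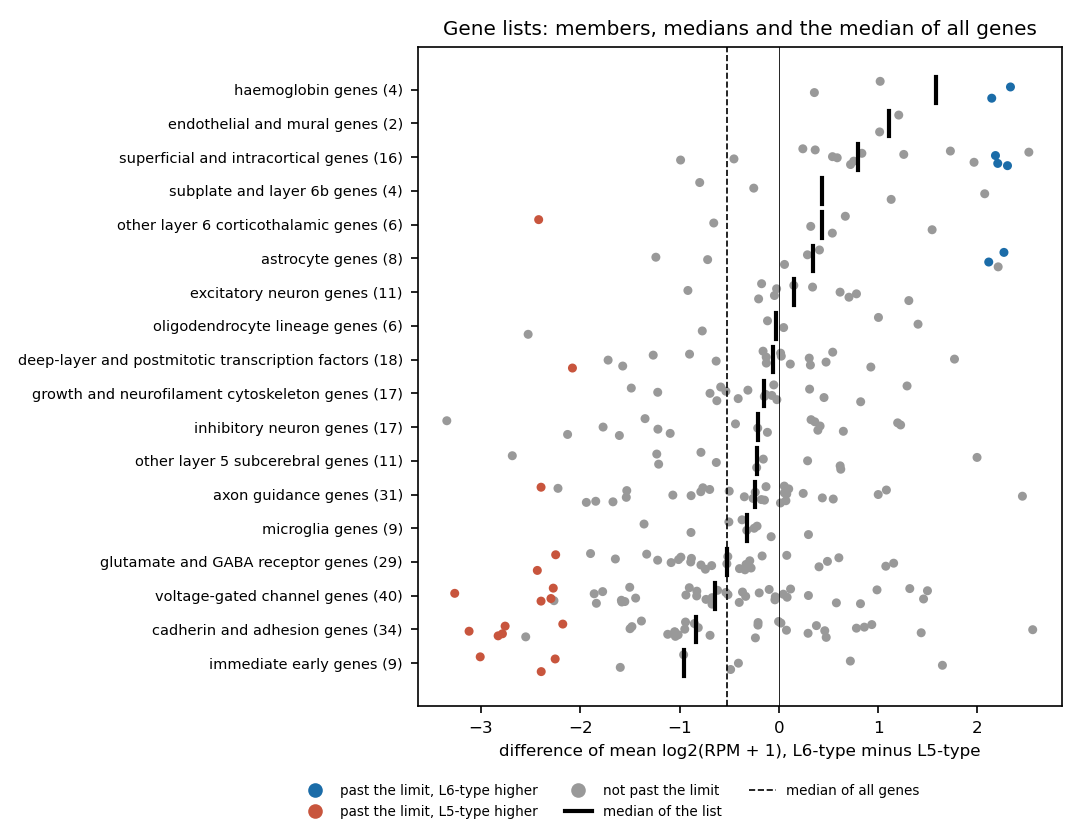
Difference of mean log2(RPM + 1), L6-type minus L5-type, for every member of 18 gene lists (points, number of genes in brackets), with the list's median (thick bar) and the median of all genes (dashed line, -0.53). Superficial genes lie mostly to the right of the dashed line (median 0.80), and adhesion and immediate early genes have medians of -0.83 and -0.96.

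Families of housekeeping genes, picked by symbol after the leading genes were seen, took part unevenly. Of 71 genes of the mitochondrial ribosome, 15 (21.1%) were past the limit toward the L5-type cells and 1 toward the L6-type cells, beside 7.99% and 0.788% of all genes. They included Mrps17 (-3.42), Mrpl40 (-3.10), Mrpl42 (-3.02) and Mrpl21 (-2.92) beside Mrpl4. Of 44 proteasome genes, 7 (15.9%) were past it on the L5-type side, and of 28 genes of ubiquitin-conjugating enzymes, 6 (21.4%), with medians relative to all genes of -0.10 and 0.13. The shares were 12.8% of 47 translation initiation genes, 11.1% of 27 vacuolar sorting genes, 10.3% of 39 deubiquitinating enzymes, 8.97% of 145 solute carriers and 3.52% of 142 zinc finger genes. By contrast, 1 of 57 genes of the cytosolic ribosome (1.75%), 1 of 44 genes of respiratory complex I (2.27%) and 0 of 10 mitochondrially encoded genes were. The median difference of the mitochondrial ribosome was -0.95, or -0.42 relative to all genes, and that of the cytosolic ribosome -0.24, or 0.29 relative to all genes. Since the families were picked for what they showed, these shares are a description.

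Across all genes other than the markers, pairs of cells from one group and from different groups had close median correlations over all pools. The median Pearson correlation of log2(RPM + 1) was 0.368 over 45 pairs of L6-type cells, 0.365 over 55 pairs of L5-type cells and 0.367 over 110 pairs of 1 cell of each. Pairs from the same library pool had medians of 0.409, 0.384 and 0.385. The correlations are across genes within pairs of cells, which differ in depth and mostly in pool, and they are given as a description.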

How the data were processed

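The authors amplified the RNA of each cell with a kit for 3′ ends, sequenced 5 library pools, aligned the reads with STAR to mm10 and counted them with HTSeq. The tool versions and the annotation are not given in the sources used here. The authors' deposited values are RPM for 9020 genes in 49 cells, and the second highest value of each gene was at least 100 RPM. From these values the reads were recovered: 100% of the values above 0 were within 0.01 of a whole multiple of the cell's smallest step. Reads carry no molecular identifiers. Exact Clopper-Pearson intervals at 95% treat the cells as independent, although the labels name no animal, so they cover counting error only. No count test was run, as cells of 1 condition are not replicates.

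Members, gene lists and tests were chosen with earlier results of these data known. Levels were compared as log2(RPM + 1) with a pseudocount of 1, as the difference of means over 10 and 11 cells, and a difference of low genes understates their change. Thinning drew 258130 reads from each cell. Within-pool differences were averaged over 4 pools. The script was tested on simulated data with planted differences above the limit, in genes of higher mean only. This checks the calculation and not how the limit behaves in these cells. Genes named are the 10 of the rule, the 15 with the largest difference in each direction among those past the limit that kept their sign within pools and after thinning, and of each list those past the limit and the 3 with the largest difference. Adrm1, Spout1, the mitochondrial ribosome genes, other list members given as examples, the defining genes of cell classes and the families were named after their values were seen. Of the genes this rule names, 2 are not reported here. Alternatives were other marker limits, pseudocounts, filters, scalings and subsets of cells. Gene positions come from GENCODE M21 (GRCm38), with an entry for 97 of 98 named genes, and the windows are from RefSeq on GRCm38.p6. Strand use in the counting is not given. The tools were Python 3.11.15, scipy 1.17.1, pandas 2.3.3, numpy 2.4.6 and matplotlib 3.10.9.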

Additional observations from a re-analysis of the deposited data

How the results depend on the processing

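No paired analysis was possible because the study has a single condition. The count of 71 genes higher in L6-type cells was 170 with a pseudocount of 0.1 RPM and 6 with 10 RPM, 114 without the filter on the share of cells, 181 with group medians, 4 at a difference of 3, 184 centred, 116 within pools, 151, 166 and 132 without pools 1, 4 and 5, and 147 without cells with 2 inhibitory genes. The count of 720 on the L5-type side was 99 with a pseudocount of 10 RPM, 2120 with group medians, 149 at a difference of 3, 332 centred, 1747 without pool 2, 1726 without cells with 2 glial genes and 2452 in cells with 2 excitatory genes. Leaving out each cell gave 62 to 102 and 680 to 1081 genes, the last without IL05_Pool5. At least 3 genes of a list left 4 and 0 cells. The median of the other layer 5 genes was 0.75 without cells with 2 inhibitory genes and -1.42 without those with 2 glial genes. In cells with 2 excitatory genes the median was -1.92 for channel genes and -1.11 for guidance genes, beside -1.12 for all genes. Within pools, 1 of the 71 and 1 of the 720 genes changed sign. Subsets and centring by these classes were chosen after seeing the data. The cause of these changes was not tested. The subsets held 6 to 8 cells a group. Marker limits of 5 and 20 RPM kept 8 and 7 of the 10 L6-type cells and 11 and 9 of the 11 L5-type cells, with 27 and 30 of the 71 genes and 410 and 435 of the 720 past the limit again. At the depth of IL02_Pool1, values under 3.87 RPM could not be seen.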

Other observations

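Of the genes past the limit, 5 had an uncentred difference of over 2 SD, all toward the L5-type cells: Adrm1, Mrpl4, Pcyt1b, Stt3b and Spout1. Spout1, a methyltransferase-like protein, was at 11.4 to 227 RPM in all 11 L5-type cells, while its highest value in an L6-type cell was 19.4 RPM. The difference was -3.81, and between -2.85 and -5.46 in each of the 4 shared pools. It reached 10 RPM in 9 of the 13 cells with both lists and in 7 of the 15 with neither. On the L6-type side the largest difference was 1.79 SD. These ratios used differences that were not centred on the median of all genes. Relative to that median, Adrm1 was at -2.18 (SD 1.16) and Stt3b at -3.86 (SD 2.10). Col1a2, higher in the L6-type cells, was at 4.20 (SD 2.05). By these values Col1a2 passed 2 SD, and Adrm1 and Stt3b did not.

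The L6-type cell IL10_Pool5 stood apart in several lists. It had the highest values among the 10 L6-type cells of Vip (8113 RPM), Gad2 (552 RPM), Fos (1228 RPM), Nr4a3 (189 RPM), Ier2 (124 RPM), Kcnn2 (27.3 RPM) and Sema3c (869 RPM), and its Hs3st4 was at 11.6 RPM, near the limit that placed it in the group.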
